A study of Mus musculus with 4 samples.

Results

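Heat shock proteins are the chaperones that fold, refold and sort other proteins, and the DNAJ proteins are the co-chaperones that deliver substrates to them. All protein-coding genes with a Dnaja, Dnajb, Dnajc or Hspa symbol followed by a digit were taken, together with the HSP90 genes Hsp90aa1, Hsp90ab1 and Hsp90b1, the mitochondrial chaperonin genes Hspd1 and Hspe1, Hsph1, and the heat shock factor genes Hsf1 and Hsf2. This gave 66 of 21887 protein-coding genes of mm10. They were scored for a Flag ChIP-seq peak at either gene end in lineage-negative bone-marrow cells, which are marrow cells depleted of cells with mature-lineage surface markers. The cells came from 8-week-old C57BL/6 mice of the genotype 3xFlag-Nynrin-Tg, which carry a tagged Nynrin transgene. Nynrin is a protein with a NYN domain, a fold found in ribonucleases, and an integrase-like region.

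Both ChIP libraries used a Flag antibody on cells of that one genotype, and the 2 input libraries came from the same kind of cells and were not analysed here. No untagged or untreated group was used, so each comparison is between genes or between the 2 ChIP libraries. The sources used here give neither the promoter that drives the transgene nor the number of animals or any pooling. The replicates may therefore be technical. Peak lists hold no expression values, so the labelled cell type could not be checked against marker genes, and a peak in this mixture of cells does not show which cells carried it.

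HSP70 proteins (the Hspa genes) hold and release unfolded segments in a cycle driven by ATP. J-domain proteins of the DNAJ classes start that cycle by bringing a substrate and triggering ATP hydrolysis, and exchange factors of the HSP110 type end it. HSP90 takes over partly folded clients such as kinases and steroid receptors, and the HSP60 chaperonin with its HSP10 lid folds proteins in the mitochondrial matrix. HSF1 switches on many of these genes after heat by binding heat shock elements, while a separate unfolded protein response controls the chaperones of the endoplasmic reticulum. Blood stem cells are known to be sensitive to changes in protein quality control.

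Replicate 1 held 12702 peaks and replicate 2 held 25787 on chromosomes 1 to 19, X and Y. Each peak has a summit and the authors' fold enrichment, a linear ratio over the caller's background. Its median was 4.04 in replicate 1 and 4.66 in replicate 2, and its size was not compared between the lists. A percentile rank gives the position of a peak by fold enrichment among all peaks of its own list. The lists carry no read counts, so depth is unknown, and equal fold values recur among genes.

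A member was called when either end of its gene had a summit no more than 1000 bp away. In replicate 1, 41 of 66 members (62.1%) were called, against 32.6% of all protein-coding genes. In replicate 2, 51 members (77.3%) were called, against 45.5%. The 41 members of replicate 1 were all called in replicate 2 as well, so 62.1% of members were called in both lists, against 31.9% of all protein-coding genes. The shared members were 100% of those in replicate 1 and 80.4% of those in replicate 2, while over all genes the shares were 97.9% and 70.1%. These shares are a description and no test was made.

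The count depended on how strictly a peak was defined. With a fold enrichment of at least 5, 21 members were called in both lists, against 9.52% of all protein-coding genes, and 21 in replicate 1, against 9.86%. With a −log10 q of at least 5 it was 31 members, against 21.1%. Windows of 500 and 3000 bp gave 36 and 45 members, against 27.9% and 36.8%. When summits near several genes were left out, 25 members were called in both lists (21.7% of all genes), 25 in replicate 1 (22.5%) and 33 in replicate 2 (33.6%). Requiring the peak itself to cover the gene end gave 34 members, against 26.2%, and lists cut to equal length gave 39, against 30% of all genes. When the peaks of both lists had to overlap at the same end, 41 members were called (31.6% of all genes), and 31 when each had to cover 50% of the other (18% of all genes). The share of members stayed above that of all genes under each of these settings.

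Of the 13 HSP70 genes, 8 were called in replicate 1, against 32.6% of all protein-coding genes, and 12 in replicate 2, whose longer list called 45.5% of all genes. Hspa8, the constitutive cytosolic HSP70, had the highest fold enrichment of all members in replicate 2 at 14.6 (rank 51 of 25787) and 5.55 in replicate 1 (rank 1827 of 12702). Its gene spans chr9:40801276-40805202. Hspa9, the mitochondrial HSP70, had 4.20 in replicate 1 and 13.8 in replicate 2. Hspa5, which encodes the endoplasmic reticulum HSP70 known as BiP, had 6.00 and 10.9, and its percentile ranks of 90.8 and 96.9 were high in both lists.

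The other shared HSP70 genes had 4.56 to 5.84 in replicate 1 and 8.29 to 11.4 in replicate 2. Hspa4 and Hspa4l encode HSP110-type exchange factors, and they had 4.56 and 4.69 in replicate 1 and the same value, 11.4, in replicate 2. Hspa13, an HSP70 relative of the endoplasmic reticulum, had 5.84 and 9.30. Hspa14, whose product works at the ribosome, had 5.67 and 8.29, and its peak also lay at the end of Cdnf. Hspa2, best known from male germ cells, had 5.57 and 10.1. Its percentile ranks were 85.9 and 94.9.

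Neither gene of the heat-inducible HSP70 pair was called in replicate 1. Hspa1a and Hspa1b encode nearly identical stress-induced HSP70 proteins and lie close together on chromosome 17. In replicate 2 the Hspa1b peak had a fold enrichment of 9.30 and ran over chr17:34959261-34960495. The Hspa1a peak had 4.52 over chr17:34972031-34973096, and it also lay within reach of the testis gene Hspa1l. The nearest replicate 1 summit was 3589 bp from Hspa1b and 8310 bp from Hspa1a. Reads from near-identical copies can be split or dropped in mapping, so the values of this pair are uncertain. Of the distant relatives, Hspa12a had a weak peak in replicate 2 alone (3.19, percentile rank 7.13) and Hspa12b had none in either list.

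The 300-bp RefSeq promoter sequences of the pair (250 bases before to 50 after the start, GRCm38.p6, minus strand) are shown because the genes can hardly be told apart there. The windows are chr17:34972107-34972406 for Hspa1a and chr17:34959189-34959488 for Hspa1b. They were identical at 296 of 300 positions (98.7%). Capitals mark the inverted pair GAANNTTC, part of a heat shock element, and the CCAAT box in either orientation.
Hspa1a: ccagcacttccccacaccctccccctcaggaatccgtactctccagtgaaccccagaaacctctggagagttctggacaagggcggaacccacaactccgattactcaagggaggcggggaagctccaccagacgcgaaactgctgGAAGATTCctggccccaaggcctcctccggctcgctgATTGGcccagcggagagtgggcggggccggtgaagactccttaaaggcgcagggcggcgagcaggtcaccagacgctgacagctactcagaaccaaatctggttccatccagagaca
Hspa1b: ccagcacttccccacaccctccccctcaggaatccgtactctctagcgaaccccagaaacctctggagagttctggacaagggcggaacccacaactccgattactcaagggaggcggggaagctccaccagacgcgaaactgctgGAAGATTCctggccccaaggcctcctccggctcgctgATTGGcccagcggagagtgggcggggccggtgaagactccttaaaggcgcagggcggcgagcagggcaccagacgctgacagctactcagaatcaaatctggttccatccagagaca

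Each promoter holds 1 GAANNTTC pair, 104 to 97 bases before the start. In replicate 2 the pair lay inside the peak of both genes, 92 bp from the summit at Hspa1a and 136 bp from it at Hspa1b.

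All 3 HSP90 genes were called in both lists, against 31.9% of all protein-coding genes. Hsp90aa1, the stress-inducible cytosolic form, had 5.70 in replicate 1 and 13.3 in replicate 2, at rank 160 of 25787. Hsp90ab1, the constitutive form, had 5.76 and 7.71, with the widest peaks of any member, 1604 and 2871 bp. Hsp90b1, which encodes GRP94 of the endoplasmic reticulum, had 4.14 and 9.06 and shared its peaks with Ttc41. Its call was lost with a fold enrichment of at least 5, with a 500 bp window or when the peak had to cover the gene end. The cytosolic forms thus had like values in replicate 1 and ranked apart in replicate 2 (percentile ranks 99.3 and 84.4).

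The chaperonin genes Hspd1 (HSP60) and Hspe1 (HSP10) lie head to head and share 1 peak in each list. That peak was weak in replicate 1, with a fold enrichment of 2.98 and a −log10 q of 2.26 over chr1:55087498-55087989, at a percentile rank of 9.77. In replicate 2 it had 7.44 and a −log10 q of 14.9 over chr1:55087088-55088596, at 82.8. The replicate 2 peak covered the outermost starts of both genes and the replicate 1 peak did not. Hsph1, the HSP110 gene, had 5.17 and 9.06.

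Hsf1, which encodes the main transcription factor of the heat shock response, had 6.34 and 8.50 and shared its peaks with Bop1. Its percentile ranks were 93.2 and 88.7. Hsf2, which encodes a related factor, was not called at its gene ends in either list. Peaks were present further in, however: their summits lay 207 bp after the RefSeq start in replicate 1 and 207 bp before it in replicate 2, with fold enrichments of 5.35 and 5.85. That start lies 2619 bp inside the gene's bounds.

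**Figure D1:**
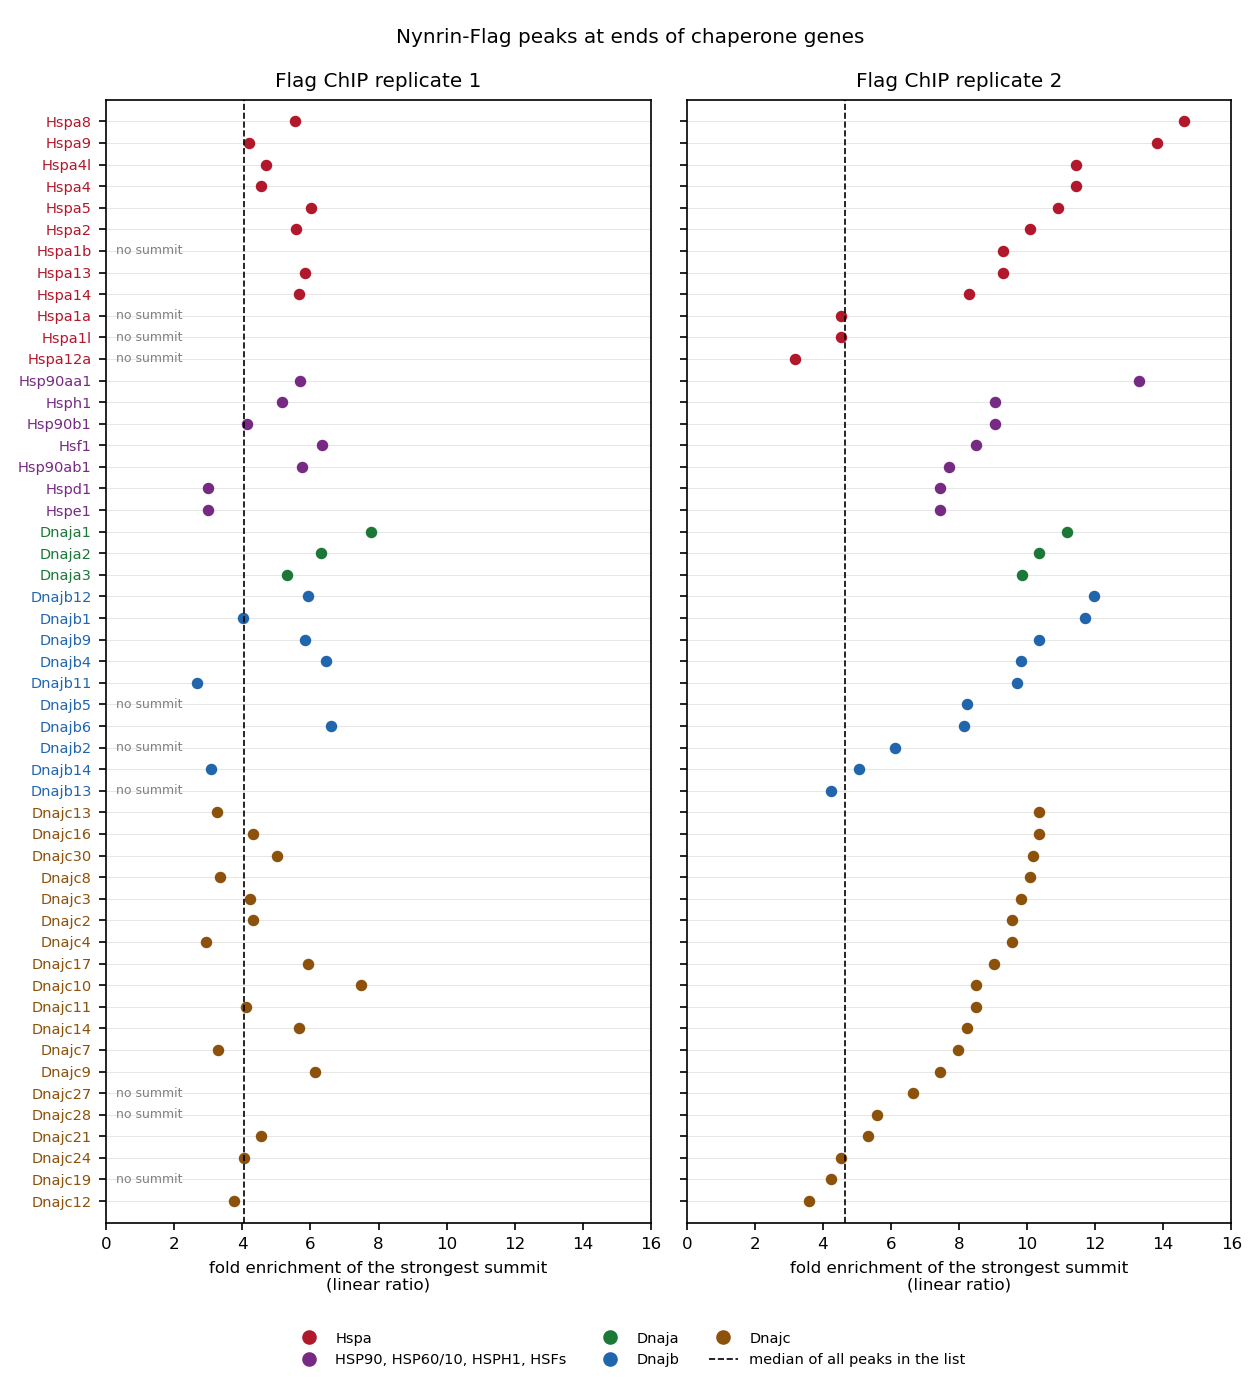
Fold enrichment (linear ratio, x axis) of each member's strongest summit, for the 51 members called in at least 1 list, in replicate 1 (left) and replicate 2 (right). Each point is 1 gene coloured by family, and the dashed line is the median of all peaks in that list. The 10 genes without a summit in replicate 1 lie between 3.19 (Hspa12a) and 9.30 (Hspa1b) in replicate 2.

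DNAJ proteins fall into classes A, B and C by their domains. Of the class A genes 3 of 4 were called in both lists, of the class B genes 7 of 13, and of the class C genes 16 of 28, against 31.9% of all protein-coding genes. Dnaja1, a cytosolic partner of HSP70, had the highest fold enrichment of all members in replicate 1 at 7.77 and had 11.2 in replicate 2. Taking for each gene whichever percentile rank was smaller, here termed the lower rank, it was also first among the members (97.1), and its peak, chr4:40722225-40723456 in replicate 1, was shared with Aptx. Dnaja2, its close relative, had 6.32 and 10.4, and Dnaja3, which acts in mitochondria, had 5.30 and 9.84. Dnaja4 had no summit nearer than 17831 bp.

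Among class B genes the strongest by the lower rank was Dnajb4, with 6.47 and 9.83 and a peak shared with Fubp1. Dnajb12, whose product sits in the endoplasmic reticulum membrane, had 5.93 and 11.96. Dnajb9, a BiP partner induced by unfolded proteins, had 5.83 and 10.4. Dnajb6, a suppressor of protein aggregation, had 6.60 and 8.14. These 4 genes lay above the 86th percentile in both lists. Dnajb1, the heat-inducible HSP40 and the usual partner of inducible HSP70, stood near the middle of replicate 1 (4.01, percentile rank 49.4) and near the top of replicate 2 (11.7, 97.9).

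The lowest ranks of class B were those of Dnajb11 and Dnajb14. Dnajb11, which encodes an abundant BiP partner, had 2.67 in replicate 1 and 9.71 in replicate 2 and shared its peaks with Tbccd1. Dnajb14, an endoplasmic reticulum membrane protein gene, had 3.06 and 5.05 and shared its peaks with the histone variant gene H2az1. Dnajb5 (8.24), Dnajb2 (6.11) and Dnajb13 (4.25) were called in replicate 2 alone. The Dnajb13 summit was the exception in position, since it lay at the 3′ end of the gene.

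In class C the values of replicate 1 ran from 2.92 to 7.48 and those of replicate 2 from 3.58 to 10.4. Dnajc10, which encodes a disulphide reductase of the endoplasmic reticulum, had 7.48 and 8.50. Dnajc17, a splicing-related gene, had 5.94 and 9.03 and shared its peaks with Zfyve19. Dnajc9, which encodes a histone chaperone, had 6.13 and 7.44. Dnajc14 had 5.67 and 8.24 with its neighbour Tmem198b, and Dnajc30, a mitochondrial protein gene, had 5.02 and 10.2 with its neighbour Bud23. These 5 genes and the class A and B genes Dnaja1 to Dnaja3, Dnajb4, Dnajb6, Dnajb9 and Dnajb12 made up the 12 DNAJ genes with the highest lower rank.

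At the other end, Dnajc4 had 2.92 and 9.57 and shared its peaks with Nudt22, and Dnajc13, which encodes an endosomal protein, had 3.25 and 10.4. Both ranked above the 93rd percentile in replicate 2 and below the 18th in replicate 1. The other 10 called DNAJ genes had 3.27 to 4.54 in replicate 1 and 3.58 to 11.7 in replicate 2. Dnajc12, a co-chaperone gene for the hydroxylases of aromatic amino acids, had the lowest replicate 2 value of any shared member (3.58, percentile rank 18.5). Dnajc27 (6.64), Dnajc28 (5.58) and the mitochondrial import gene Dnajc19 (4.25) were called in replicate 2 alone.

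The members were also grouped by where their products act, or by the setting they are known from, such as heat or germ cells. All 7 genes for ribosome, splicing and histone partners were called in both lists, against 31.9% of all protein-coding genes: Hspa14, Dnajc2, Dnajc8, Dnajc9, Dnajc17, Dnajc21 and Dnajc24. Dnajc2, the ribosome-bound partner of Hspa14, had 4.30 and 9.57 and shared its peaks with the proteasome gene Psmc2. Dnajc8, a spliceosome-associated gene, had 3.34 and 10.1 with its neighbour Atpif1. Dnajc21, which acts in ribosome assembly, had 4.54 and 5.31, and Dnajc24, which acts in diphthamide synthesis, had 4.06 and 4.52. Complete as it was, this group therefore included some of the weaker shared peaks, and its median fold enrichment was 4.54 and 8.29.

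Of 12 genes of the endoplasmic reticulum, 10 were called in both lists (83.3%, against 31.9% of all genes), and Dnajc1 and Dnajc18 in neither. Their medians were 5.07 and 9.77. Dnajc3, which encodes an inhibitor of the stress kinase PERK, had 4.24 and 9.83, and Dnajc16 had 4.31 and 10.4. The 10 genes grouped as heat-inducible also held Hspa8 and Hsp90ab1, named above as constitutive forms. Of these 10, 8 were called in both lists and all 10 in replicate 2, against 31.9% and 45.5% of all genes. The difference was Hspa1a and Hspa1b. Of 8 mitochondrial genes, 6 were called in both lists (31.9% of all genes were), with a median fold enrichment of 4.14 and 8.50. Among them Dnajc11, which associates with the cristae organising complex, had 4.09 and 8.50, Dnajc19 was called in replicate 2 alone and Dnajc15 in neither list.

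In 2 groups few members were called. Of 5 vesicle traffic genes only Dnajc13 was called. The cysteine string protein genes Dnajc5, Dnajc5b and Dnajc5g and the auxilin gene Dnajc6, which uncoats clathrin vesicles, were not. Of 8 germ-cell genes, Hspa2 was called in both lists, Hspa1l and Dnajb13 in replicate 2 alone, and Dnajb3, Dnajb7, Dnajb8, Dnajc5b and Dnajc5g in neither. Germ-cell genes were thus called in 12.5% of cases in both lists, below the 31.9% of all protein-coding genes. With 5 and 8 genes, 1 gene more or less shifts these shares widely. Dnajc5b and Dnajc5g were counted in both groups, so the shares are not independent.

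**Figure D2:**
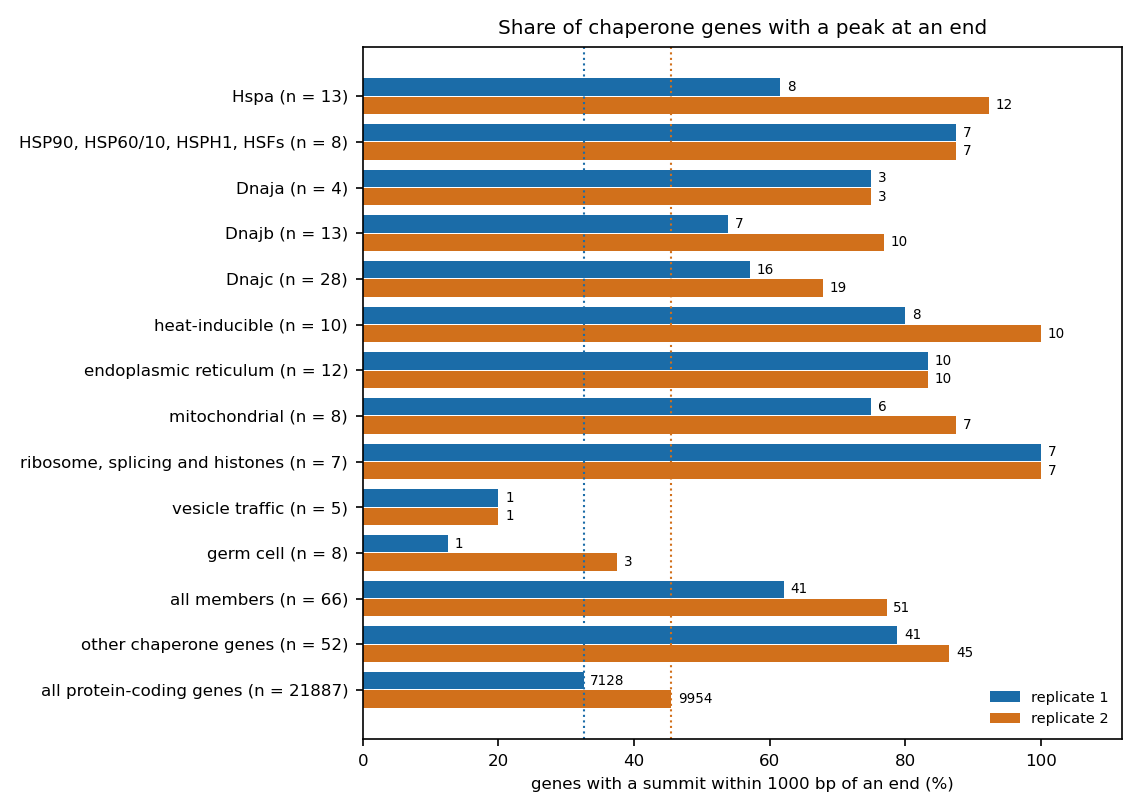
Share of genes (%, x axis) called in replicate 1 and replicate 2, for each family and functional group of members, for 52 other chaperone genes and for all 21887 protein-coding genes. Numbers beside the bars count the called genes and the dotted lines mark the shares of all genes, 32.6% and 45.5%. All groups except the vesicle traffic and germ-cell genes lie above both lines.

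In all, 15 of 66 members had no summit at an end in either list, against 11786 of all 21887 protein-coding genes. The 15 members were Dnaja4, Dnajb3, Dnajb7, Dnajb8, Dnajc1, Dnajc5, Dnajc5b, Dnajc5g, Dnajc6, Dnajc15, Dnajc18, Dnajc22, Dnajc25, Hsf2 and Hspa12b. For 3 of them both lists had a peak at a RefSeq start that lies well inside the gene's bounds. At Dnajc25 the start lies 8394 bp inside the bounds, and the summits were 136 bp after it in replicate 1 and 53 bp before it in replicate 2, with fold enrichments of 5.35 and 9.57. At Dnajc1, an endoplasmic reticulum gene, the start lies 1269 bp inside, and the summits were 38 and 296 bp after it, with 2.93 and 8.50. Hsf2, given above, was the third. Genes with a peak at such an inner start were not counted over all protein-coding genes.

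Scored at RefSeq starts alone, 34 of the 52 members with a start in the tables were called in both lists, against 34.5% of the 17492 protein-coding genes scored that way. Dnajc5 had 3 peaks inside the gene in each list, each overlapping its counterpart, the strongest in replicate 2 being at chr2:181520042-181521192 (9.03). Its summits nearest to an end missed the window at 1314 and 1169 bp. Dnajc18 had an internal peak in both lists (3.08 and 5.05), about 5.3 kb from its nearer end. By the summit nearest to each gene, just inside the window in replicate 2 were Hspa4l (898 bp) and Dnajc7 (867 bp), and the next summits outside were those of Dnajc5 and Dnajc1 (1565 bp). In replicate 1 the outermost summits inside were those of Dnajc7 (655 bp) and Hsp90b1 (654 bp), and the nearest outside was that of Hspa1l (1238 bp).

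The summits of called members sat at gene starts. RefSeq starts were given for 31 of the 41 shared members, and all 31 had their strongest summit at the 5′ end in both lists, against 95.4% and 96.1% of all called genes with a start. The median position was 85 bp before the start in replicate 1 and 64 bp before it in replicate 2. Over all called genes with a start the medians were 37.5 and 42 bp before it. Within 250 bp of the start were 28 summits in replicate 1 (90.3%) and 26 in replicate 2 (83.9%). Of all called genes with a start it was 73.8% and 76.4%. The peak covered the outermost start of 28 of the 31 genes in replicate 1, the exceptions being Hsp90b1, Hspd1 and Hspe1, and of all 31 in replicate 2.

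The peaks of the 2 replicates overlapped at all 41 shared members, with summits a median of 119 bp apart, against an overlap at 96.9% of all called genes and a median of 103 bp. The closest pair was at Dnajc4, 1 bp apart, and the widest gap was at Dnajc21, 498 bp. At Dnajc21 and Dnajc24 the replicate 2 summit lay 402 and 459 bp downstream of the start. Of the 41 members, 38 had a wider peak in replicate 2 (92.7%, against 91.8% of all called genes). Median widths were 885 bp in replicate 1 and 1462 bp in replicate 2 over the called members, and 658 and 1092 bp over all called genes.

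**Figure D3:**
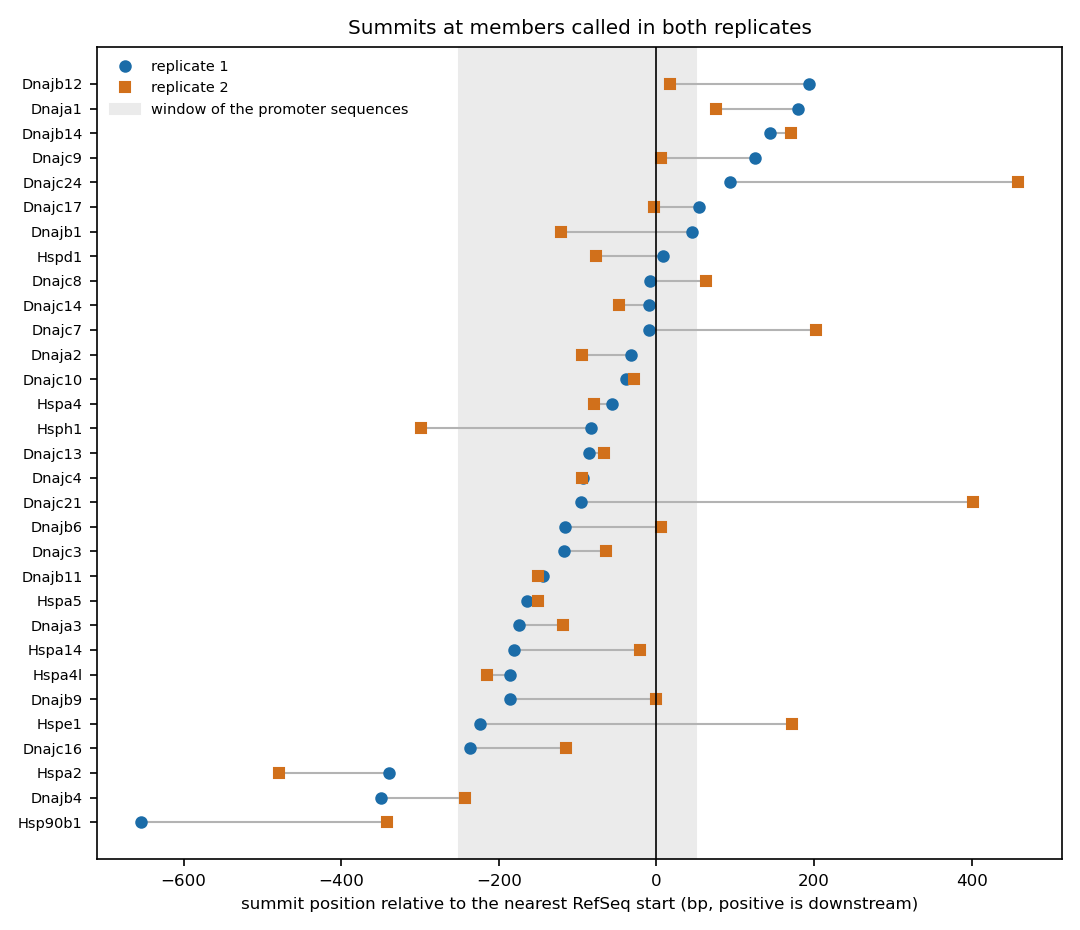
Position of the strongest summit relative to the nearest RefSeq start (bp, positive is downstream) for the 31 members called in both lists that have a start in the tables. Circles are replicate 1, squares replicate 2, and the grey band is the window of the promoter sequences. Most summits lie between 250 bp before and 250 bp after the start. Dnajc21, Dnajc24 and Hspe1 show gaps of 366 to 498 bp between replicates. Hspd1 shares its peaks with Hspe1, but its points lie at 8 and -77 bp, each measured from the nearer of its 2 starts.

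Many of these starts lie close to another gene. For 16 of the 41 shared members (39.0%) the strongest peak was also within 1000 bp of another protein-coding gene in both lists, against 31.4% of all called genes. Besides the neighbours already named, the peak of Dnajc7, a partner of both HSP70 and HSP90, was shared with Nkiras2. The chaperonin pair was the only one made up of 2 members. At such a start a peak cannot be assigned to either gene.

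Percentile ranks were higher in the longer replicate 2 list for genes in general. The median over the genes called in each list was 58.5 in replicate 1 and 79.0 in replicate 2 for all protein-coding genes, and 77.2 and 91.7 for the members. Above the 90th percentile of replicate 2 were 26 of the 41 shared members (63.4%), against 37.7% of all genes called in both lists. In replicate 1 it was 8 members (19.5%), against 14.6%. Only 4 members were above the 90th percentile in both: Dnaja1, Dnaja2, Dnajb4 and Hspa5 (9.76% of the 41, against 9.31% of all called genes). Of the 26 members above the 90th percentile in replicate 2, 10 were below the 60th in replicate 1, and of the 2633 such genes in all it was 914, a like proportion. The 10 were Hspa9, Hsp90b1, Dnajb1, Dnajb11, Dnajc2, Dnajc3, Dnajc4, Dnajc8, Dnajc13 and Dnajc16. The rank correlation of fold enrichment between the lists over the 41 members was weak (Spearman's rho 0.19), and it was 0.34 over the 6981 called genes. The points come from the same 2 libraries and many values of replicate 2 are tied.

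**Figure D4:**
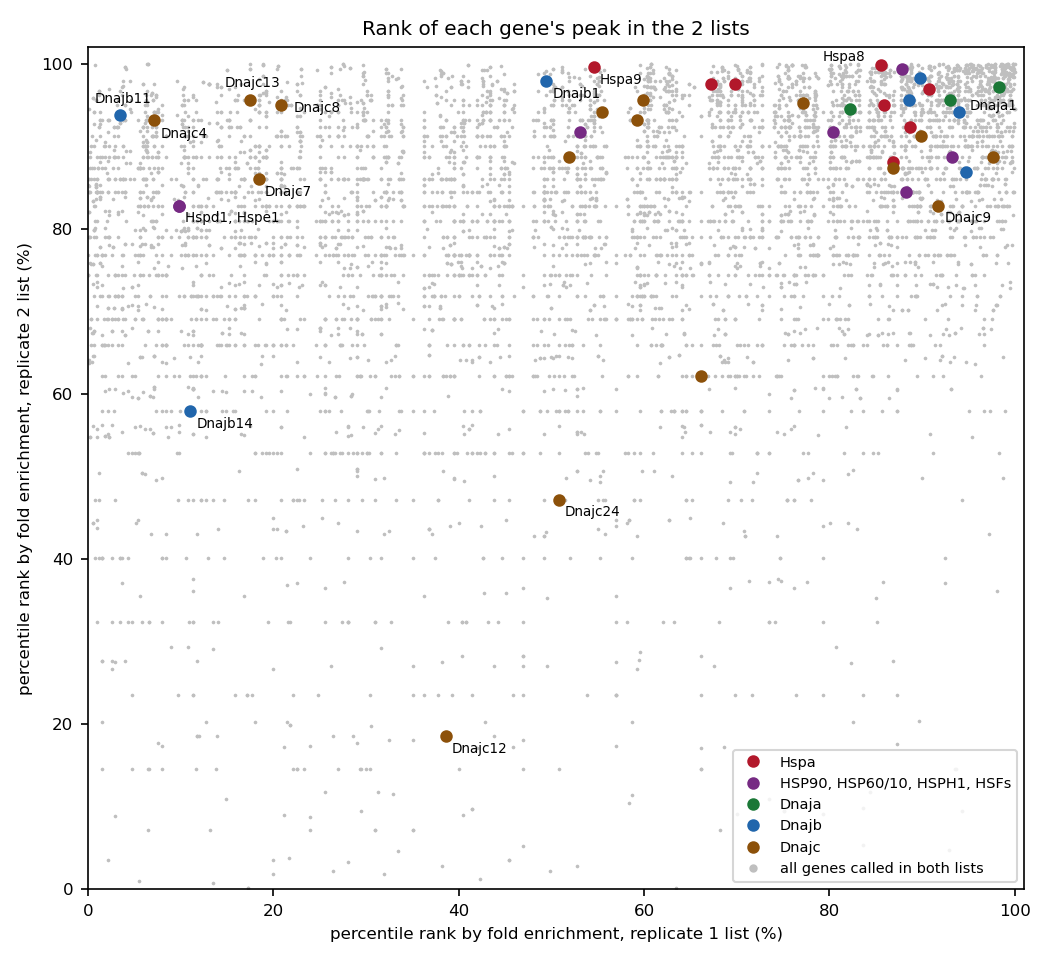
Percentile rank by fold enrichment in the replicate 1 list (x axis, %) and the replicate 2 list (y axis, %) for the 41 shared members, coloured by family, and for all 6981 genes called in both lists (grey). The members spread over the whole width of replicate 1, from Dnajb11 at 3.45 to Dnaja1 at 98.3, while all but Dnajb14, Dnajc12, Dnajc21 and Dnajc24 lie above the 80th percentile of replicate 2.

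The promoter sequences were read for features that the scoring had not used. RefSeq promoters were given for 52 of the 66 members and for 17492 protein-coding genes, 1 promoter being taken for each gene. Promoters were searched on both strands, and a match only says that the letters are present. The inverted pairs GAANNTTC and TTCNNGAA, each its own reverse complement, were found in 15.4% and 7.69% of member promoters, against 7.35% and 7.64% of all promoters. GAANNTTC was in 4 of 31 promoters of shared members and in 4 of 21 of the other members. For TTCNNGAA it was 4 of 31 and 0 of 21. Over all genes called in both lists the shares were 5.84% and 7.04%, against 8.09% and 7.94% of the remaining genes. A run of 3 units, in which a GAANNTTC pair shares its last or first unit with a TTCNNGAA pair, was found in Dnajb6, Hspe1 and Hsph1, which is 5.77% of member promoters, against 0.480% of all. All 3 genes were called in both lists, as were 30 of the 84 genes in all whose promoter holds the run.

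The promoters of these 3 genes are shown with those of Dnaja1 and Dnajc10, which were the called members with the highest lower rank that hold an inverted pair. The windows are chr5:149636287-149636586 (minus strand) for Hsph1, chr1:55087898-55088197 (plus) for Hspe1, chr5:29735648-29735947 (plus) for Dnajb6, chr4:40722218-40722517 (plus) for Dnaja1 and chr2:80315216-80315515 (plus) for Dnajc10, in GRCm38.p6. Capitals mark GAANNTTC, TTCNNGAA and CCAAT on either strand.
Hsph1: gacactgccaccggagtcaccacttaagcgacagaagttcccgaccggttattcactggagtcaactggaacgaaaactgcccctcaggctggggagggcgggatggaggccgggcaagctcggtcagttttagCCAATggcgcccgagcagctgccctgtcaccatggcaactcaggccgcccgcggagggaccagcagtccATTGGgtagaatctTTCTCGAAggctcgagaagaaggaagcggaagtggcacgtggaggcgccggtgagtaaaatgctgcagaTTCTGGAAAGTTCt
Hspe1: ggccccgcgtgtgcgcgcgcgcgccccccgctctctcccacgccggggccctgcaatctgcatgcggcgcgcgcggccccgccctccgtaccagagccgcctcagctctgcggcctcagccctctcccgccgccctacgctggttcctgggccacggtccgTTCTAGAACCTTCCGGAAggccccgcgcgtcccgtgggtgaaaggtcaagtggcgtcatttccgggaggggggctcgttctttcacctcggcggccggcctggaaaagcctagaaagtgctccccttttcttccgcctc
Dnajb6: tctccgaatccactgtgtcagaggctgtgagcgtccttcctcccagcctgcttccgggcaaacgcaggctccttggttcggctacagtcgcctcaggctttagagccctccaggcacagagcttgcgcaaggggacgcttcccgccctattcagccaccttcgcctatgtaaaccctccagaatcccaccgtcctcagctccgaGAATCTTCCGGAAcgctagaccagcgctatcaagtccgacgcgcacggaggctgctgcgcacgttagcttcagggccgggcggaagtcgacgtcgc
Dnaja1: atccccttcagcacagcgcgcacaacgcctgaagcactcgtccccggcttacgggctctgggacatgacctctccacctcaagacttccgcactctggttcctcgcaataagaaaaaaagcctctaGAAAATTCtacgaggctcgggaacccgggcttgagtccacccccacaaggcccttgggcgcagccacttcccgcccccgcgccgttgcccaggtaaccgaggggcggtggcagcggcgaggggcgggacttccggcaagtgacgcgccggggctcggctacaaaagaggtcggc
Dnajc10: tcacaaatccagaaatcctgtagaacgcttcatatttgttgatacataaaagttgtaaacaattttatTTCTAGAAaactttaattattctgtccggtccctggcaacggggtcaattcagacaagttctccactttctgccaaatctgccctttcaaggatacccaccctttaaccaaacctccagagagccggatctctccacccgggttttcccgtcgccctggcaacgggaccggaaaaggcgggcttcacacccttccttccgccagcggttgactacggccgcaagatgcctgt

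At Dnajb6 the run of 3 units lay 46 to 34 bases before the start and 76 and 46 bp from the summits of replicates 1 and 2, inside both peaks. At Hsph1 it lay 37 to 49 bases after the start, inside both peaks and 125 and 341 bp from the summits. At Hspe1 a run of 4 units lay between 89 and 72 bases before the start. That run was inside the replicate 2 peak and outside the narrower replicate 1 peak, 141 bp from the nearest replicate 1 summit.

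A second element, CCAAT followed after 9 bases by CCACG, is the endoplasmic reticulum stress element through which the unfolded protein response acts. It was found in 3 member promoters (5.77%), those of Hspa5, Hsp90b1 and Dnajc3, against 0.160% of all promoters. The 3 genes encode chaperones or a co-chaperone of the endoplasmic reticulum, and all were called in both lists, as were 13 of the 28 genes in all with this element. Their promoters are shown for comparison, with that element and the CCAAT boxes in capitals. They lie at chr2:34771840-34772139 (plus strand) for Hspa5, chr10:86705395-86705694 (minus) for Hsp90b1 and chr14:118937682-118937981 (plus) for Dnajc3.
Hspa5: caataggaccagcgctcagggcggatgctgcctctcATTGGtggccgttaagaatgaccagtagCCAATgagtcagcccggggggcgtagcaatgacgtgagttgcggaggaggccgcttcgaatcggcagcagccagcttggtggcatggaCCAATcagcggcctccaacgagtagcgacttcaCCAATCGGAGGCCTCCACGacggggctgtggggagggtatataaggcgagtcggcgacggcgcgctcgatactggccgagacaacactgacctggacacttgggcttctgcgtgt
Hsp90b1: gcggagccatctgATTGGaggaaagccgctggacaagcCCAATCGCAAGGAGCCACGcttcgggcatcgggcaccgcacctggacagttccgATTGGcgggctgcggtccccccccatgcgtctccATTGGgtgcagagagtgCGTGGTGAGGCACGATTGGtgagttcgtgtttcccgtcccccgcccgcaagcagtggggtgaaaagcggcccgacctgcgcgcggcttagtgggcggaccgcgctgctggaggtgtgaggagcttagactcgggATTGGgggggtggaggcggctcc
Dnajc3: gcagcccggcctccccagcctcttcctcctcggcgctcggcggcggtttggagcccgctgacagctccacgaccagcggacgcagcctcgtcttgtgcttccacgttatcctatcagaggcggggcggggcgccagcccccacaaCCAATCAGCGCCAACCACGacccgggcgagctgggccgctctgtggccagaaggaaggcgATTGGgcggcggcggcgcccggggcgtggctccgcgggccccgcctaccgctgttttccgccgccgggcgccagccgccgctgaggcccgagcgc

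In Dnajc3 the element lay 21 and 32 bp from the summits of replicates 1 and 2, and in Hspa5 108 and 94 bp. Hsp90b1 held 2 copies, both inside both peaks, and the nearer was 451 and 139 bp from the summits. CCAAT boxes in all were found in 44.2% of members and 39.2% of all promoters. The GC box GGGCGG was found in 71.2% of members and 46.3% of all promoters, and TATAAA in 3.85% and 13.3%. The letters CCGGAAG, an ETS factor site, were found in 19.2% of members and 11.9% of all promoters. GCGCATGC, the core of an NRF1 site, was found in 0 of 52 members and 3.61% of all promoters. Among called genes alone the contrasts differed. CCGGAAG was in 9 of the 31 promoters of shared members (29.0%), against 23.3% of the promoters of all called genes. For GGGCGG it was 80.6% against 69.0%, and for GCGCATGC 0 of 31 against 7.06%.

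Member promoters were rich in CpG, the dinucleotide whose density marks promoters of broadly expressed genes. The median was 25 CpG per 300 bases, against 13 over all promoters, and GC content was 62.3% against 56.3%. When promoters were split into 3 classes by CpG count, 31 members fell in the highest class (22 or more), of which 25 (80.6%) were called in both lists, against 59.5% of all genes in that class. In the middle class (7 to 21) it was 6 of 20 members (30.0%), against 37.8% of all genes. A single member, the germ-cell gene Dnajb7, was in the lowest class, where 5.22% of all genes were called.

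The 6 members of the highest class that were not called in both lists can be named. Dnajb5, Dnajc27 and Hspa12a were called in replicate 2 alone, Dnajc25 and Hsf2 had a peak at an inner start, and Dnaja4 had none nearby. The inducible genes Hspa1a and Hspa1b belonged to the middle class, with 15 and 16 CpG. Among shared members the lowest count was 7, at Dnajc24, and the highest was 44, at Dnajb4 and Dnajc13.

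**Figure D5:**
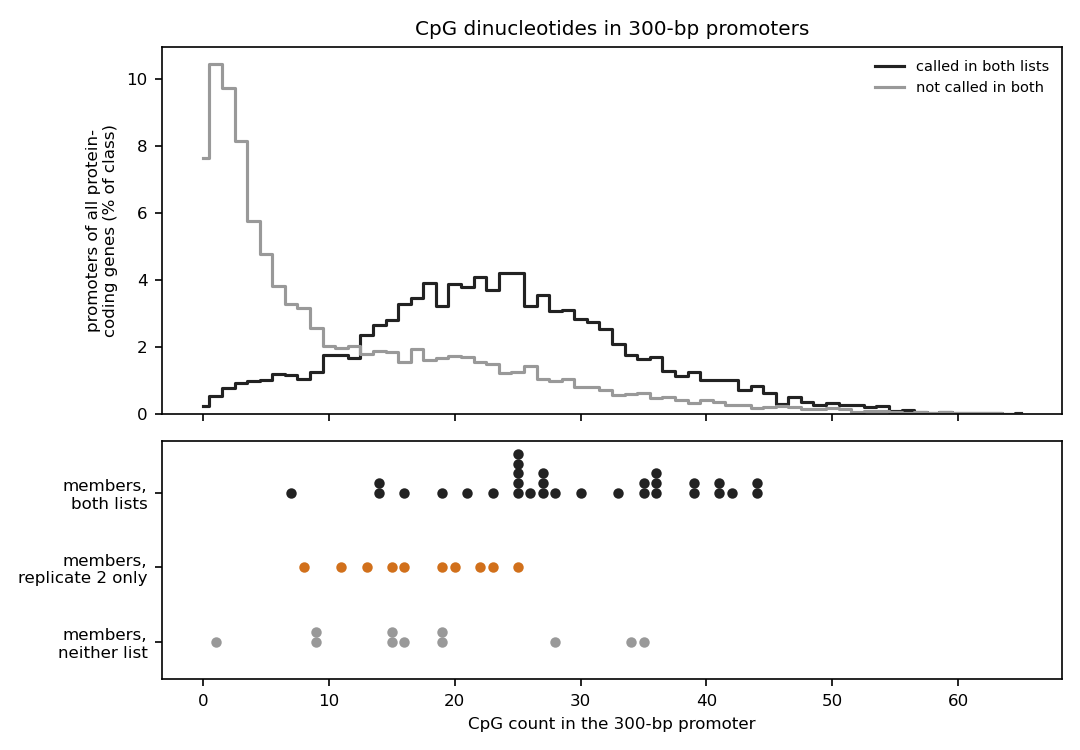
Number of CpG dinucleotides in the 300-bp promoter (x axis). Above, the distribution over promoters of all protein-coding genes called in both lists (black) and of those that were not (grey), as a percentage of each class, with medians of 23 and 6. Below, each point is 1 of the 52 members with a promoter, by whether it had a summit in both lists, in replicate 2 alone or in neither. The shared members reach from 7 to 44 CpG and those of replicate 2 alone from 8 to 25.

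The partners of these chaperones were scored in the same way, using 52 other chaperone and co-chaperone genes. Of these, 41 were called in replicate 1, 45 in replicate 2 and 40 in both (76.9%, against 31.9% of all protein-coding genes). All 8 genes of the cytosolic chaperonin CCT, which folds actin and tubulin, were called in both lists, led by Cct4 (7.42 and 11.7). The same held for all 11 HSP90 co-chaperones, among them Ptges3 (8.09 and 10.1), which encodes p23, and Cdc37l1 (6.54 and 8.24). All 7 exchange factors and regulators of HSP70 were called in both lists, including Hyou1 (5.43 and 11.96) and the ubiquitin ligase gene Stub1 (3.51 and 14.3).

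Bag6, which encodes a chaperone of membrane protein precursors, had the highest lower rank of the 52 (8.32 and 13.8), although Stub1 stood above it in replicate 2. Of the genes called in both lists, Pfdn2 and Hscb had the smallest lower ranks, set by replicate 1. Pfdn2, a prefoldin subunit gene, had 2.67 and 6.11 and shared its peaks with Nit1. Hscb, a J-domain protein gene of iron-sulphur cluster assembly, had 2.80 and 5.48 and shared its peaks with Chek2. In replicate 2 the lowest of the genes called in both lists was Fkbp4, an HSP90 co-chaperone gene (4.92). Of 6 prefoldin genes 3 were called in both lists, against 31.9% of all protein-coding genes. Of 5 small heat shock protein genes only Hspb6 was (4.94 and 9.30), and it shared its peaks with Proser3. Hspb7 had a peak in replicate 2 alone (3.19), and Hspb1, Hspb8 and Cryab had none in either list. With 6 and 5 genes, 1 gene more or less shifts the shares of these families widely. Of the 52 genes, 5 were called in replicate 2 alone, against 2973 of all 21887 protein-coding genes. Besides Hspb7 they were Bag2 (3.19), Bag3 (7.17), Hsf4 (3.72) and Pfdn1 (5.05). Bag3 encodes a partner of small heat shock proteins.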

How the data were processed

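Fixation took 10 min in 1% formaldehyde, and 10 ng of DNA went into each TruePrep library, with 16 cycles of amplification, per the labels' protocols. Per the submitters' processing notes, the build was mm10 and the tools included Bowtie2 and MACS2. The sources used here state neither the peak cutoff nor whether the input served as control. Peaks were called for each library separately, per the peak names. The authors' deposited fold enrichment is a linear ratio to the caller's background. The deposited −log10 q was used for a threshold. The deposited −log10 p and the deposited score, which is 10 times the −log10 q, were not used.

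Only the numbered chromosomes, X and Y were used. Gene bounds and promoters came from RefSeq for GRCm38.p6, the assembly behind mm10. Starts were given for 52 of 66 members, and the promoter taken was that nearest the gene's outer bound. Scores used Python 3.11.15 with numpy 2.4.6 and pandas 2.3.3, and were tested on simulated data. No group was tested against another. The members and lists were chosen with earlier results of these data known. Values are given for all HSP70, HSP90, chaperonin, Hsph1 and heat shock factor genes, the 12 highest and 4 lowest shared DNAJ genes by the lower percentile rank, members in a single list, those near the window's edge, and the 4 highest and 2 lowest other chaperones. Further named genes were chosen after their values were seen.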

Additional observations from a re-analysis of the deposited data

How the results depend on the processing

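With 2 libraries of 1 genotype, calls measure only whether the lists share a peak. No paired analysis was possible because both peak lists used here belong to the Flag ChIP group, so no second group with the same replicate numbers was compared, and no result comes from a test. Counts of members called in both lists were 41 in the text. They were 21 with fold enrichment of at least 5 (background 9.52%), where replicate 1 alone also gave 21, and 25 when summits near several genes were left out (background 21.7%), where replicates 1 and 2 gave 25 and 33. Under the latter setting genes with a close neighbour can seldom be called. With −log10 q of at least 5 the count was 31 (background 21.1%), with a 500 bp window 36 (27.9%) and with a 3000 bp window 45 (36.8%). Of the 41 members, 12 were called under every setting that scored them: Dnaja2, Dnaja3, Dnajb9, Dnajb12, Dnajc9, Hsp90aa1, Hsp90ab1, Hsph1, Hspa2, Hspa5, Hspa8 and Hspa13. The same count was not made over all protein-coding genes, so it cannot be set against a background share.

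All protein-coding genes called in both lists numbered 6981, and 4619, 2084 and 3934 with −log10 q of at least 5, fold enrichment of at least 5 and peaks covering 50% of each other. The 40 other chaperone genes became 16 with fold enrichment of at least 5 and 26 without summits near several genes. With fold enrichment of at least 5 the counts were 5 for HSP70 genes, 4 for the HSP90, chaperonin, Hsph1 and heat shock factor genes, 4 for class B, 5 for class C, 5 for heat-inducible, 5 for endoplasmic reticulum, 2 for mitochondrial, 3 for ribosome, splicing and histone, and 0 for vesicle traffic genes. Without summits near several genes they were 3 for the HSP90, chaperonin, Hsph1 and heat shock factor genes, 4 for class B, 9 for class C, 5 for heat-inducible, 3 for mitochondrial and 3 for ribosome, splicing and histone genes. With −log10 q of at least 5, class C gave 10 and the ribosome, splicing and histone genes 4. Shares of all genes were 9.52% with the fold threshold, 21.7% without summits near several genes and 21.1% with the −log10 q threshold.

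Scored at RefSeq starts, which fewer genes have, 5 of 10 HSP70, 5 of 7 heat-inducible and 3 of 5 mitochondrial genes were called. The share of all genes scored that way was 34.5%. With the peak interval over the gene end, 4 of the HSP90, chaperonin, Hsph1 and heat shock factor genes were, against 26.2% of all genes. Vesicle traffic genes gave 0 there, 0 with a 500 bp window and 2 with a 3000 bp window, where germ-cell genes gave 2. The shares of all genes with these windows were 27.9% and 36.8%. Leaving out replicate 1 or 2, germ-cell genes ranged from 1 to 3 and members from 41 to 51. All genes gave 45.5% without replicate 1 and 32.6% without replicate 2. All other counts stayed within 1.5 times those in the text.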
